A study of Mus musculus with 4 samples.

Results

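The mitochondrial ribosomal protein genes were followed in RNA-seq of fetal oocytes from normal diet (ND) and high-fat diet (HFD) mothers. They were all protein-coding genes whose symbol begins with Mrpl or Mrps followed by a number, and 78 of 21897 protein-coding genes met this rule, 49 for the large subunit (Mrpl) and 29 for the small subunit (Mrps). The 78 genes lie on 17 chromosomes, and chromosome 11 carries 11 of them. The 5 annotated Mrp pseudogenes were left out. The oocytes were SSEA-1-positive cells sorted by FACS from E18.5 ovaries of ICR fetuses, an outbred mouse stock. Their mothers had been fed ND or HFD for 4 months and were mated with ND males, and the deposited labels call the cells primordial germ cells. Each diet had 2 libraries, called ND 1, ND 2, HFD 1 and HFD 2 below, and each library was made by SMART-Seq2, which amplifies polyadenylated RNA, from oocytes pooled over several fetuses. The comparison asks how the level and the detection of these genes differed between HFD and ND fetal oocytes.

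Mitochondria keep a small genome and a ribosome of their own. The mitoribosome translates the 13 mRNAs of the mitochondrial genome, all of which code for subunits of the respiratory chain and ATP synthase, while its own proteins are encoded in the nucleus, made in the cytosol and imported. Its large subunit forms peptide bonds and holds the exit tunnel, and its small subunit binds the mRNA and decodes it. Some of these proteins descend from bacterial ribosomal proteins, and others were added in the evolution of mitochondria and have no bacterial counterpart. Oocytes are known for their large content of mitochondria, which are passed on through the mother.

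The libraries held 5723605 to 8223255 counts, and 3 counts corresponded to 0.365 to 0.524 CPM (the count scaled to a common library total). The trimmed mean of M values (TMM) factors of edgeR were 1.02 and 0.940 for ND and 0.692 and 1.51 for HFD. Of 10 germ cell markers, 9, 9, 7 and 7 were above background in ND 1, ND 2, HFD 1 and HFD 2, and none was at 0, with summed levels of 2634 and 3823 CPM in ND and 4138 and 2447 CPM in HFD. Of these 10 genes, 6 had higher and 4 lower fitted values in HFD, 3 and 1 of them at an unadjusted p under 0.05 by edgeR. The RNA-binding protein gene Dazl had 14247, 29465, 2926 and 49 counts in the same order, and the helicase gene Ddx4 had 49, 97, 5 and 14. The synaptonemal complex gene Sycp1 had 36, 48, 9038 and 7978 counts, and the oocyte transcription factor gene Figla had 8, 13, 3943 and 296. Of 10 stromal markers, 6, 4, 4 and 6 were above background, with summed levels of 2844 and 70.2 CPM in ND and 2232 and 7703 CPM in HFD. Of 10 pregranulosa markers, 2, 3, 0 and 2 were above background, with 36.5 and 410.5 CPM in ND and 20.0 and 1168 CPM in HFD. The larger sums came mostly from single genes, Fst with 2990 counts in ND 2 and Amhr2 with 6372 in HFD 2. All other pregranulosa counts were at most 89. No stromal or pregranulosa marker was at 0 in any library. Endothelial markers summed to 28.5 and 76.9 CPM in ND and 714 and 47.9 CPM in HFD, and Kdr, with 4398 counts, made up most of the sum in HFD 1. Blood markers summed to 1976 CPM in ND 1 and to at most 24.8 CPM in the others, where the globin genes had 0 to 3 counts. Macrophage markers stayed between 11.6 and 43.5 CPM, with C1qa at 0 in ND 1 and Lyz2 at 0 in ND 2. The part of these levels in the results below was not tested.

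Most mitochondrial ribosomal protein genes were either barely detected or abundant in a given library, with few values in between. Over the 78 genes and 4 libraries there were 312 values, of which 233 (74.7%) lay under 10 CPM with a median of 17 counts. Only 24 values (7.69%) lay between 10 and 50 CPM. The other 55 values (17.6%) reached 50 CPM, with a median of 7172 counts and a highest level of 4115 CPM, that of Mrpl42 in ND 1. A gene that was abundant in one library was usually not abundant in the next. Of the 41 genes that reached 50 CPM anywhere, 28 did so in 1 library, 12 in 2 libraries and 1, Mrps24, in 3 libraries. The level in the highest library was 41.8 times that in the second highest at the median of these 41 genes, from 1.05 times for Mrps24 to 1737 times for Mrps18b. The highest values of the 41 genes were found in ND 1 for 15, in HFD 1 for 12, in ND 2 for 11 and in HFD 2 for 3.

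**Figure D1:**
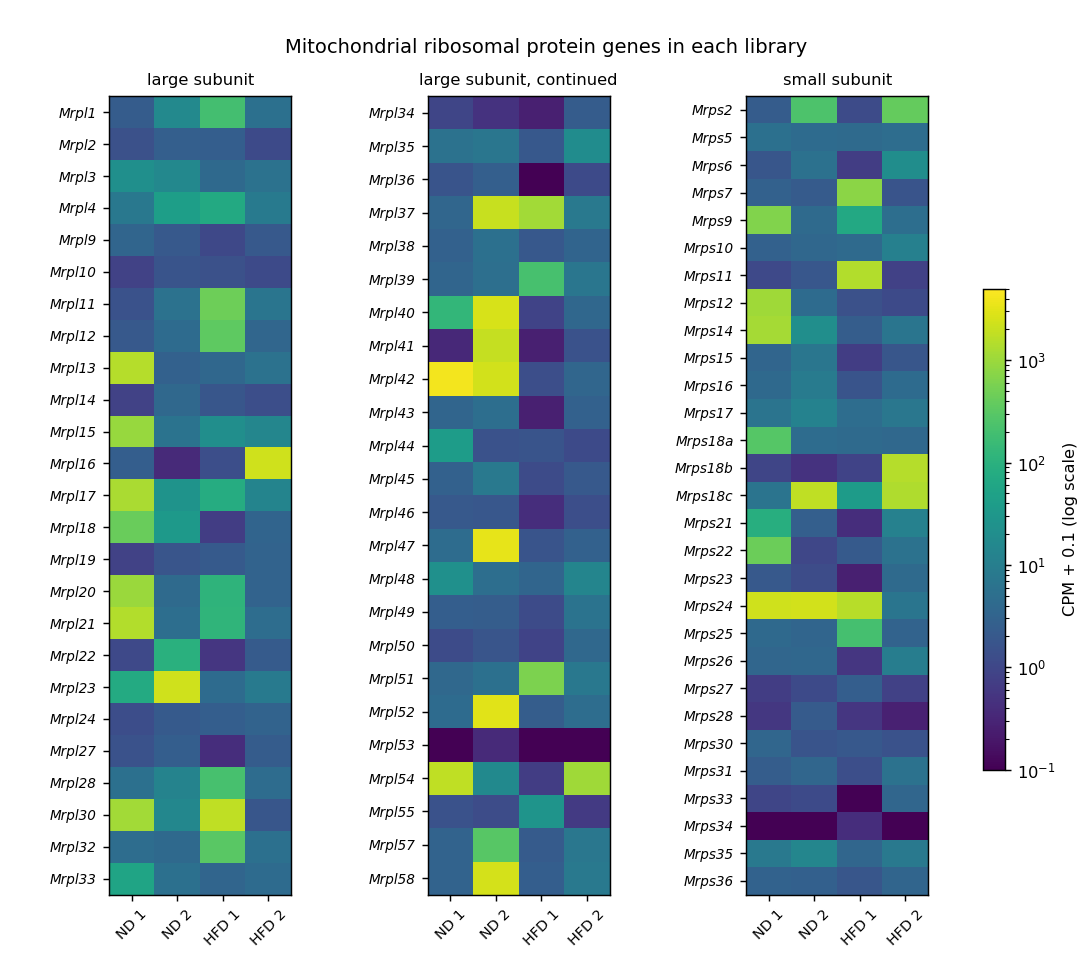
Level of each of the 78 mitochondrial ribosomal protein genes (rows) in the 4 libraries (columns), as CPM plus 0.1 on a logarithmic colour scale, with the large subunit in the left and middle panels and the small subunit in the right panel. Of the 312 values, 55 reach 50 CPM, and 28 of the 41 genes that do so reach it in 1 library.

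Replicates of one diet shared few of the abundant genes. At 50 CPM, ND 1 held 19 genes and ND 2 held 13, and 4 were shared, which is 21.1% of the first and 30.8% of the second. HFD 1 held 18 and HFD 2 held 5, and 0 were shared. Among all protein-coding genes the shared part was 24.6% and 43.1% of the ND libraries and 18.4% and 36.6% of the HFD libraries. Levels of the same gene lay over 10-fold apart between the ND replicates for 27 of the 78 genes and between the HFD replicates for 26, with median ratios of 2.25 and 4.38. The cytosolic ribosomal protein genes were taken by symbol, as the 98 protein-coding genes that begin with Rpl or Rps followed by a number. This rule does not ask whether the product is a part of the ribosome, and kinase genes whose symbol begins so are included. The set overlapped more between replicates. Of its genes, 50 reached 50 CPM in both ND libraries, out of 62 and 61, and 38 in both HFD libraries, out of 70 and 40.

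Fewer mitochondrial ribosomal protein genes stood above the background of their own library in HFD than in ND fetal oocytes, by a margin that depended on the limit. Background was taken as the 99th percentile of counts per kilobase of exon over 1135 olfactory receptor genes, which oocytes are not known to use, and it lay at 8.47, 9.01, 7.44 and 12.5 counts per kilobase in ND 1, ND 2, HFD 1 and HFD 2, or 1.03, 1.15, 1.15 and 2.19 CPM per kilobase. A gene had to pass this limit and 3 counts. In ND 1 and ND 2, 46 and 48 of the 78 genes were above background, and in HFD 1 and HFD 2, 27 and 24 were. The ND mean was 47.0 ± 1.41 genes (SD, n = 2) and the HFD mean 25.5 ± 2.12 (SD, n = 2), and the groups did not overlap. The difference of -21.5 genes was larger than the spread between replicates, and its two-sided exact permutation p was 0.333, the smallest that 2 against 2 libraries can give. In bulk RNA, fewer cells and less RNA per cell cannot be told apart. With other limits the difference was smaller. With the highest limit, that of HFD 2, applied to all libraries in CPM per kilobase, 27, 37, 21 and 24 genes were above it, a difference of -9.5. The median level of the 78 genes was 3.28 and 4.41 CPM in ND and 2.01 and 4.28 CPM in HFD, so that HFD 2 lay between the ND libraries. Over 3 counts alone there were 75, 73, 64 and 74 genes, a difference of -5. At 10 CPM they were 22, 24, 21 and 12, a difference of -6.5, and at 50 CPM they were 19, 13, 18 and 5, a difference of -4.5. The groups overlapped at 3 counts and at 50 CPM and lay 1 gene apart at 10 CPM.

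Against the background of each library both subunits shared this direction, and the other genes of the libraries did too. Of the 49 large subunit genes, 32 and 34 were above background in ND and 18 and 15 in HFD. Of the 29 small subunit genes, 14 and 14 were above background in ND and 9 and 9 in HFD. Among all protein-coding genes the shares were 24.9% and 22.1% in ND and 13.3% and 15.2% in HFD, while the shares of the 78 genes were 59.0% and 61.5% in ND and 34.6% and 30.8% in HFD. Of the 98 cytosolic ribosomal protein genes, 84 and 82 were above background in ND and 78 and 73 in HFD. At 10 CPM all protein-coding genes did not share the direction, with 2280 and 2100 in ND and 2278 and 3414 in HFD. Nor did they at 50 CPM, with 1417 and 810 in ND and 1683 and 846 in HFD.

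**Figure D2:**
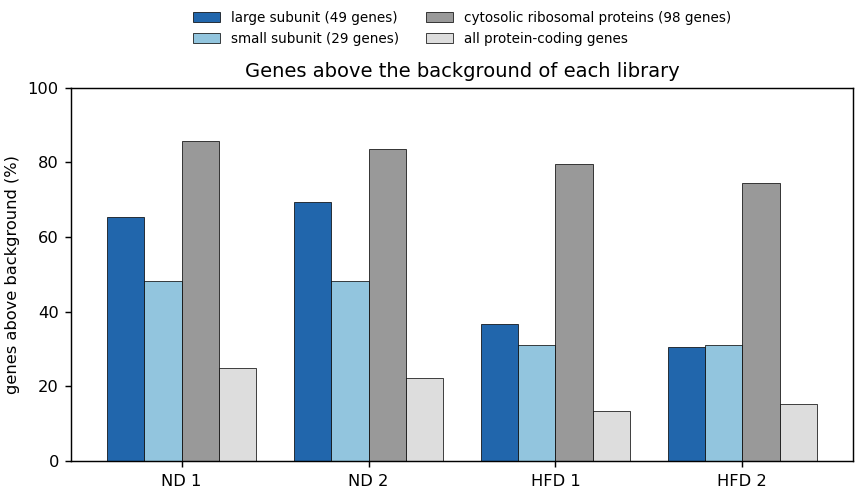
Share of genes above the background limit of each library (vertical axis, percent) for large subunit genes, small subunit genes, cytosolic ribosomal protein genes and all protein-coding genes. The large subunit bars stand at 65.3% and 69.4% in ND and at 36.7% and 30.6% in HFD, and the cytosolic ribosomal protein bars stay between 74.5% and 85.7%.

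Of the 78 genes, 9 were above background in all 4 libraries, 12 in 3, 27 in 2, 19 in 1 and 11 in none. Both ND libraries had 34 genes above background in common and both HFD libraries 9, and 13 genes were above background in both ND libraries and in neither HFD library, against 0 in the reverse case. Among all 21897 protein-coding genes these last counts were 1023 and 157, so that they leaned to ND too. The genes in common were 73.9% and 70.8% of those above background in ND 1 and ND 2. In HFD 1 and HFD 2 they were 33.3% and 37.5%. Among all protein-coding genes, 2779 were in common in ND, or 50.9% and 57.3%, and 1109 in HFD, or 38.0% and 33.3%. The 9 genes found in all 4 libraries were Mrpl4, Mrpl12, Mrpl21, Mrpl28, Mrpl39, Mrpl52, Mrps18c, Mrps24 and Mrps36. The 11 genes found in none were Mrpl10, Mrpl19, Mrpl24, Mrpl50, Mrpl53, Mrps5, Mrps10, Mrps30, Mrps31, Mrps33 and Mrps34. Both groups mixed subunits, with 6 large and 3 small subunit genes in the first and 5 and 6 in the second. Exons of Mrpl53, Mrps34 and Mrps25 overlap those of other genes over 88.0%, 77.8% and 69.8% of their length, so that their counts are uncertain.

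The summed level of the 78 genes was lower in HFD fetal oocytes. It was 19978 and 25350 CPM in ND (mean 22664 ± 3799, SD, n = 2) and 9847 and 6966 CPM in HFD (mean 8407 ± 2037, SD, n = 2), a log2 ratio of -1.43 between groups that did not overlap. The exact permutation p was 0.333, again the smallest possible. Large subunit genes summed to 13968 and 20773 CPM in ND and 5705 and 3581 CPM in HFD, a log2 ratio of -1.90. Small subunit genes summed to 6009 and 4577 CPM in ND and 4142 and 3385 CPM in HFD, a log2 ratio of -0.49, with p of 0.333 for each subunit by the exact permutation test. The sum of large over that of small subunit genes was 2.32 and 4.54 in ND and 1.38 and 1.06 in HFD, a log2 ratio of the means of -1.49, which was -0.93 without ND 2. Few genes carried these sums. The 5 most abundant genes took 55.6% (95% exact binomial interval 55.4 to 55.9) of the counts of the 78 genes in ND 1, 54.8% (54.6 to 55.0) in ND 2, 67.7% (67.3 to 68.1) in HFD 1 and 94.9% (94.7 to 95.1) in HFD 2, intervals that cover counting error only. The cytosolic ribosomal protein genes summed to 66534 and 93085 CPM in ND and 65794 and 31804 CPM in HFD, a log2 ratio of -0.71.

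**Figure D3:**
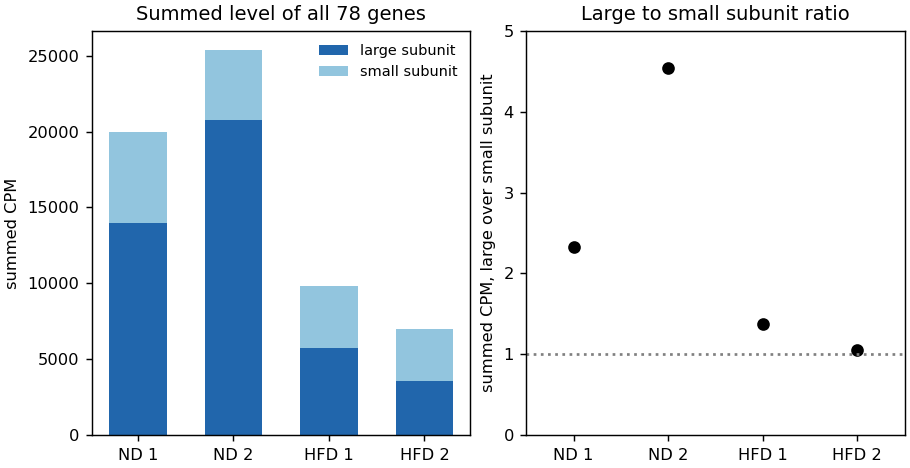
Left, summed CPM of the large subunit genes (dark) and small subunit genes (light) in each library, with bars starting at 0. Right, the ratio of the sums in each library, which is 2.32 and 4.54 in ND and 1.38 and 1.06 in HFD, with a dotted line at 1.

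The subunits were also divided by whether the protein takes the place of a bacterial one. The 30 large subunit genes with a bacterial counterpart summed to 7854 and 5866 CPM in ND and 3768 and 2405 CPM in HFD, and the 19 without one to 6114 and 14908 CPM in ND and 1937 and 1176 CPM in HFD, with log2 ratios of -1.15 and -2.76. The 16 small subunit genes with a bacterial counterpart summed to 5265 and 4539 CPM in ND and 3919 and 1857 CPM in HFD, a log2 ratio of -0.76. The groups did not overlap in any of these. The 13 small subunit genes without one went the other way, with 745 and 38.0 CPM in ND and 223 and 1528 CPM in HFD, a log2 ratio of 1.16 between groups that did overlap (exact permutation p = 0.667). This direction came from Mrps18b, which had 1479 of the 1528 CPM in HFD 2. Without it the HFD sums were 222 and 48.9 CPM and the log2 ratio was -1.53.

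Gene by gene, edgeR's quasi-likelihood test called 0 of the mitochondrial ribosomal protein genes at a Benjamini-Hochberg adjusted p under 0.05 and a fold change over 1.5, as it called 0 of 19335 genes in all (0% higher and 0% lower). The smallest adjusted p was 0.406. The filter on low counts kept 69 of the 78 genes and left out Mrpl10, Mrpl34, Mrpl41, Mrpl53, Mrps18b, Mrps27, Mrps28, Mrps33 and Mrps34. At an unadjusted p under 0.05, 12 genes were lower in HFD and 0 higher, 9 of 45 large and 3 of 24 small subunit genes, beside 6.41% lower and 4.82% higher of all genes tested. Of the 69, 20 had both HFD values below both ND values and 2 had both above, beside 17.8% and 16.1% of all genes tested. The median log2 fold change was -0.99 for the 69 genes, -1.00 for the large and -0.60 for the small subunit genes, and 0.03 for all genes. The median of the mitochondrial ribosomal protein genes depended on single libraries. It was -0.09 without ND 1 and -0.23 without ND 2, against -1.56 and -1.55 without HFD 1 and HFD 2. In the same fits the median of all genes was 0.24, 0.12, -0.10 and -0.18. These fits tested 75, 73, 75 and 73 of the 78 genes. Limma-voom called 0 genes too. With DESeq2 run on all genes, 48 of the 78 genes received an adjusted p, and 12 were called higher and 17 lower in HFD, 8 and 13 of them in the large subunit, beside 24.3% higher and 21% lower of the 5601 genes that received one.

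The 11 genes with an unadjusted p under 0.05 and groups that did not overlap were all lower in HFD. The share of all genes that met both conditions at once is not given here, so this count is not read as a result about the members. The 11 genes comprised genes with large counts in at least one ND library and genes with modest counts in both. Mrpl42 (chr10:95480805-95501940, GRCm38, minus strand), which encodes a large subunit protein without a bacterial counterpart, was abundant in both ND libraries. It had 33840 and 19016 counts in ND and 8 and 20 in HFD, and the log2 fold change was -10.64 (SE 2.69, unadjusted p = 0.00787 by edgeR). It had the highest CPM of the 78 genes in ND 1, without regard to length, and the log2 fold change stayed between -10.99 and -10.36 when any single library was left out. Both HFD counts were below the background limit.

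In 7 further genes the ND side rested mainly on one library, and their unadjusted p-values by edgeR lay between 0.0133 and 0.0481. Mrpl40 (chr16:18872018-18876862), a large subunit gene without a bacterial counterpart, had 1080 and 20184 counts in ND and 5 and 21 in HFD (log2 fold change -9.63, SE 2.91, and -6.24 without ND 2). Mrpl18 (chr17:12911349-12916345), the counterpart of bacterial L18, had 3466 and 259 counts in ND and 4 and 18 in HFD (log2 fold change -7.20, SE 2.08, and -4.62 without ND 1). Both ND values of these genes were at least 10 times both HFD values. Mrpl47 (chr3:32725397-32737605), the counterpart of bacterial L29 near the mouth of the exit tunnel, had 37 and 25813 counts in ND and 10 and 16 in HFD. Mrpl52 (chr14:54426909-54429756), a large subunit gene without a bacterial counterpart, had 35 and 24225 counts in ND and 15 and 27 in HFD. Their fold changes were carried by ND 2, since the log2 value moved from -9.73 to -1.15 for Mrpl47 and from -8.98 to -0.42 for Mrpl52 when it was left out. Mrps12 (chr7:28739641-28741820), whose product sits at the decoding centre of the small subunit, had 8689 and 34 counts in ND and 9 and 6 in HFD. Mrps14 (chr1:160195215-160202170), another small subunit gene with a bacterial counterpart, had 9506 and 161 counts in ND and 15 and 37 in HFD. These depended on ND 1, without which the log2 fold change moved from -8.58 to -1.82 for Mrps12 and from -7.23 to -2.59 for Mrps14.

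The last of the 7, Mrpl23 (chr7:142532686-142540747, plus strand), encodes the counterpart of bacterial L23, a protein of the exit tunnel. It had 602 and 17522 counts in ND and 28 and 47 in HFD, with a log2 fold change of -7.71 (SE 2.76) that moved to -3.66 without ND 2. Its processed pseudogene Mrpl23-ps1 (chr2:74591330-74591909, minus strand) had 52, 1631, 265 and 2 counts in ND 1, ND 2, HFD 1 and HFD 2. The 441 coding bases of Mrpl23, stop codon included, were 100% identical to the pseudogene in the GENCODE transcripts, so that reads from this stretch fit both places and the counts of both are uncertain. The first 180 coding bases are shown because they occur in the gene and in the pseudogene without a difference.
Mrpl23 and Mrpl23-ps1, coding bases 1 to 180: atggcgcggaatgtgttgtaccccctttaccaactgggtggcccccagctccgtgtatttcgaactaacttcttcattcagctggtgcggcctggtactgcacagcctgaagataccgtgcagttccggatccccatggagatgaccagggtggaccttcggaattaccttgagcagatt
In all, 11 of the 78 genes shared a stretch of 150 or more bases at 98% identity or more with 13 other annotated genes, most of them processed pseudogenes.

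The remaining 3 genes had modest counts and closer replicates. Mrpl3 (chr9:105053239-105079888), the counterpart of bacterial L3, had 178 and 122 counts in ND and 25 and 33 in HFD (log2 fold change -2.00, SE 0.65, unadjusted p = 0.0221 by edgeR). Mrps15 (chr4:126046925-126055532), the counterpart of bacterial S15, had 27 and 55 counts in ND and 4 and 10 in HFD (log2 fold change -2.35, SE 0.55, unadjusted p = 0.00435 by edgeR, and -1.69 without ND 2). Mrpl45 (chr11:97315716-97329920), whose product ties the large subunit to the inner membrane, had 23 and 62 counts in ND and 7 and 11 in HFD (log2 fold change -1.96, SE 0.63), a value that moved to -0.99 without ND 2. Of the 11 genes, Mrpl3 alone kept an unadjusted p under 0.05 in edgeR without HFD 1, and Mrpl42 alone without HFD 2. DESeq2 on all genes called 8 of the 11 lower at an adjusted p under 0.05. The 3 it did not call were Mrpl3, Mrps15 and Mrpl45, with unadjusted p of 0.0916, 0.0809 and 0.138 by that test. With DESeq2 on the genes kept by the filter on low counts, their unadjusted p-values were 0.00896, 0.00357 and 0.012. Each of these 3 genes was above background in both ND libraries and in neither HFD library.

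**Figure D4:**
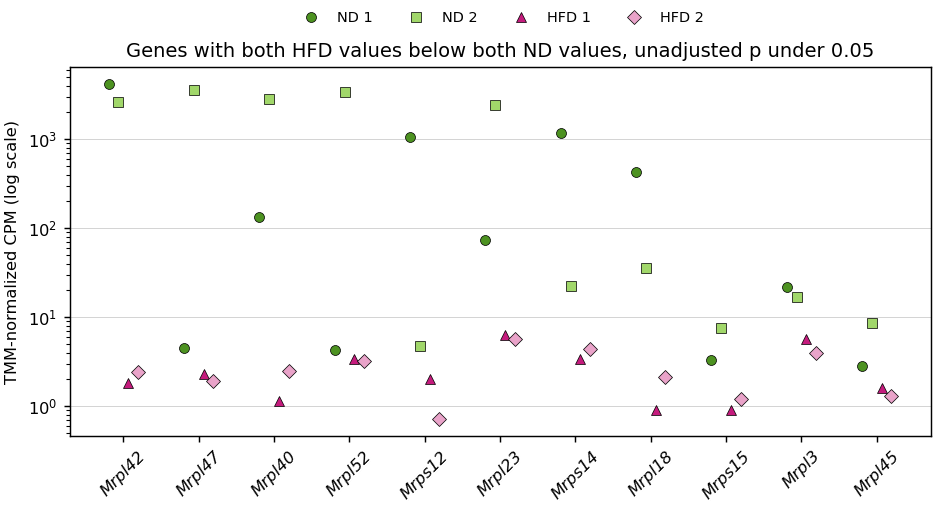
TMM-normalized CPM (logarithmic axis) of the 11 genes with both HFD values below both ND values and an unadjusted p under 0.05, ordered by log2 fold change, with 1 symbol per library. Mrpl42 is high in both ND libraries, Mrpl47 and Mrpl52 in ND 2 only, Mrps12 in ND 1 only, and Mrpl3 has close replicates.

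Set against these were genes that were most abundant in an HFD library. Mrps11, the counterpart of bacterial S11, had 8 and 14 counts in ND and 9337 and 4 in HFD. Its neighbour Mrpl46, which overlaps it head to head on the opposite strand, had 16 and 14 counts in ND and 2 and 7 in HFD. Mrpl16, the counterpart of bacterial L16, had 20 and 2 counts in ND and 8 and 12969 in HFD. Mrpl12, which encodes a protein of the stalk that binds translation factors, had 16 and 34 counts in ND and 2206 and 20 in HFD. Mrpl39 had 27 and 40 counts in ND and 1399 and 40 in HFD, and Mrpl28 had 44 and 98 in ND and 1372 and 26 in HFD. In Mrps11, Mrpl16, Mrpl12, Mrpl39 and Mrpl28, 1 HFD library was high and the other lay within or near the range of the ND libraries, and none of the 5 had an edgeR p under 0.05.

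Levels between genes were compared per kilobase of exon within CPM. In ND 1 the leading genes were Mrpl54 at 2146, Mrps24 at 1566 and Mrpl42 at 1118 CPM per kilobase, and in ND 2 they were Mrpl52 at 2795, Mrpl41 at 2173 and Mrps18c at 1684. In HFD 1 they were Mrps24 at 1077, Mrps11 at 666 and Mrpl30 at 546, and in HFD 2 Mrpl54 at 1323, Mrps18c at 1293 and Mrpl16 at 715. No gene led in both libraries of a diet, whereas Mrpl54, Mrps18c and Mrps24 each led in 1 ND and 1 HFD library. Mrps24, the counterpart of bacterial S3 at the entry of the mRNA channel, reached 50 CPM in the most libraries, with 18882 and 18826 counts in ND and 10199 and 37 in HFD. Mrpl54 had 14558 and 131 counts in ND and 4 and 6248 in HFD, and Mrpl30 had 9251 and 115 in ND and 11377 and 10 in HFD. Mrpl41 had 15081 counts in ND 2 and 1 to 8 in the other libraries. Mrpl21 had 11857 and 39 counts in ND and 780 and 27 in HFD, and Mrpl4 had 61 and 340 in ND and 453 and 47 in HFD.

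Some genes bear a name that does not tell their place or their role. The 3 paralogues of bacterial S18 did not share a pattern. Mrps18c, the one that takes the place of S18 in the small subunit, had 51 and 14157 counts in ND and 242 and 7966 in HFD. Mrps18b had 7 and 3 counts in ND and 5 and 8465 in HFD. Mrps18a, whose product is found in the large subunit, had 2347 and 35 counts in ND and 26 and 22 in HFD. Mrps30, also a large subunit protein despite its name, had 28 and 12 counts in ND and 12 and 8 in HFD and was not above background in any library. Mrps36, now known as a component of the alpha-ketoglutarate dehydrogenase complex, was low and even, with 24 and 21 counts in ND and 11 and 19 in HFD. Mrpl58, a peptidyl-tRNA hydrolase that rescues stalled mitoribosomes, had 25 and 19304 counts in ND and 16 and 45 in HFD. With Mrps30 and Mrps18a moved to the large subunit and Mrps36 left out, the log2 ratio of large to small sums between diets was -1.53.

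The promoters of these genes held sites of 3 transcription factors in larger shares than protein-coding promoters at large, a description for which no test was run. RefSeq promoters (GRCm38.p6, 250 bases before to 50 bases after the start) were matched by symbol for 69 of the 78 genes, 43 large and 26 small, and compared with 16513 protein-coding promoters. The 7 bases CCGGAAG, a core of the sites bound by the ETS factor GABPA, also called nuclear respiratory factor 2, were present on either strand in 25 of 69 (36.2%) against 12.3% of all promoters. The site AAGATGGC of YY1 was present in 12 (17.4%) against 3.29%, and the site GCGCATGC of nuclear respiratory factor 1 in 8 (11.6%) against 3.76%. At least 1 of these 3 was present in 37 (53.6%) against 17.8%. TATAAA was present in 4 (5.80%) against 12.9%, GGGCGG in 34 (49.3%) against 48.0% and CCAAT in 27 (39.1%) against 38.7%. The GABPA core ends in the 3 letters with which the YY1 site begins, so that the sites can overlap, and the nuclear respiratory factor 1 site can overlap its own reverse strand. The median position of the first letter was -16.5 for the GABPA core and 16 for the YY1 site, counted from the start of transcription. A match is a description of the sequence, and binding was not measured.

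Stretches of 100 bases of 4 promoters, 70 before to 30 after the start, are shown 5′ to 3′ on the strand of the gene because they carry these sites next to the start. Capitals mark the GABPA core on either strand in Mrpl52, Mrpl58 and Mrps12, and the GABPA core and the YY1 site in Mrps18a.
Mrpl52, chr14:54426839-54426938, plus strand: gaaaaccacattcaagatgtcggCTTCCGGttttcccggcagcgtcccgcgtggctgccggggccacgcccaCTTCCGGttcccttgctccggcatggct
Mrpl58, chr11:115403682-115403781, plus strand: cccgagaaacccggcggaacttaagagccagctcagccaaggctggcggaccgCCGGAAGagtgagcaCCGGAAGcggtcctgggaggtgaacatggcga
Mrps12, chr7:28741792-28741891, minus strand: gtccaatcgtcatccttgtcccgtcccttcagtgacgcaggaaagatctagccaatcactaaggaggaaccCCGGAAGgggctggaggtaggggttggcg
Mrps18a, chr17:46110934-46111033, plus strand: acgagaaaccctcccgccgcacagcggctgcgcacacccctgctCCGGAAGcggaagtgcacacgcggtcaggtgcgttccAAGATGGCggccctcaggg
Mrpl43, Mrpl53 and Mrps16 also hold the GABPA core more than once, as Mrpl52 and Mrpl58 do. The highest levels of Mrpl43, Mrpl53 and Mrps16 were 4.99, 0.256 and 8.83 CPM, and those of Mrpl52 and Mrpl58, both in ND 2, were 3100 and 2470 CPM.

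The other genes of mitochondrial translation were counted beside 4.82% higher and 6.41% lower of all genes at an unadjusted p under 0.05. In lists this short 1 gene changes the share widely, so the counts are not read as a result about a list. Of 5 mitoribosome proteins with other names, 0 had an unadjusted p under 0.05, and Chchd1, a small subunit protein, had 18 and 47 counts in ND and 3592 and 26 in HFD. Of 20 assembly factors, 16 were tested and 1 was higher and 0 lower at an unadjusted p under 0.05. It was the pseudouridine synthase gene Rpusd4, with 12 and 9 counts in ND and 13 and 26 in HFD. Of the 20 factors, 12 were above background in no library and 0 were above it in HFD 2, Rpusd4 included. Of 15 translation factors, 13 were tested and 0 were higher and 1 lower at that p. This was Mtif3, an initiation factor, with 31 and 30 counts in ND and 4 and 10 in HFD (log2 fold change -1.90, SE 0.38, unadjusted p = 0.00189 by edgeR). Among 17 aminoacyl-tRNA synthetases, which load the mitochondrial tRNAs, 1 was higher and 3 were lower at that p. Among the lower ones, Rars2 had 2874 and 25694 counts in ND and 16 and 18 in HFD, and Yars2 had 19 and 46 in ND and 4 and 2 in HFD. Wars2 was higher through HFD 2, with 30 and 9 counts in ND and 36 and 4039 in HFD. Lars2, the only synthetase above background in all 4 libraries, had 239 and 168 counts in ND and 327 and 351 in HFD. Of 6 transcription genes, 4 were tested and 1 was higher and 0 lower at an unadjusted p under 0.05. This was the polymerase gene Polrmt, with 37 and 33 counts in ND and 767 and 137 in HFD (log2 fold change 4.38, SE 1.55). None of these genes was called by edgeR at an adjusted p under 0.05, and DESeq2 called 8 higher and 6 lower of 33 to which it gave an adjusted p, the mitochondrial mRNAs included, beside 24.3% and 21% of all genes.

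The mRNAs that the mitoribosome translates differed widely in level. Of the 13, 7 had 2459 to 160633 counts in every library and the other 6 had 1 to 173. The 13 mRNAs summed to 48862 and 44153 CPM in ND and 11177 and 34837 CPM in HFD, and 11 of them were above background in all 4 libraries. At an unadjusted p under 0.05, 1 of them was lower in HFD, beside 6.41% of all genes tested. This was mt-Atp8, with 27 and 49 counts in ND and 6 and 12 in HFD. Of the 13, 7 share stretches at 98% identity or more with annotated nuclear copies on chromosome 1, so that their counts are uncertain.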

How the data were processed

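The 2 ND and 2 HFD libraries hold RNA of fetal oocytes at E18.5. The authors checked reads with FastQC, trimmed with Trim Galore, aligned to mm10 with HISAT2 and deposited raw counts per gene from featureCounts, one library per sample. The annotation release, the strand setting and the handling of reads with several alignments are not given in the sources used here. Gene names, exons and positions came from GENCODE M21 on GRCm38, which lists 55141 of 55401 identifiers.

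The counts were compared in R 4.3.3 with edgeR 4.0.16 (TMM, filterByExpr, glmQLFit with legacy FALSE, glmQLFTest) across all genes, with Benjamini-Hochberg adjustment. DESeq2 1.42.0 and limma 3.58.1 (voom) were alternatives, as were other normalizations, filters and limits, a replicate block and each library left out. The paper called its genes with DESeq2 at the same limits of fold change and adjusted p. It reported genes in both directions, where edgeR called none here. DESeq2 on all genes, run here at the same limits, called 1360 higher and 1179 lower of the 5601 genes that received an adjusted p. Single values were compared with two-sided exact permutation tests. Standard errors divide the log2 fold change by the root of the F statistic. The scripts were tested on simulated data. Copies were sought with BLAST 2.17.0. Nothing says that the 2 libraries of a diet came from separate litters, so that p-values measure only the spread between them.

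Genes were named that had an unadjusted p under 0.05 and groups that did not overlap, that led a library per kilobase, that were above background in all 4 libraries, or whose name misstates their place or role. Mrpl46 was named after its values were seen. The members and lists were chosen with earlier results of these data known. The values of 1 gene of these lists are not reported here.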

Additional observations from a re-analysis of the deposited data

How the results depend on the processing

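EdgeR called 0 mitochondrial ribosomal protein genes in either direction under other size factors, library size only, no filter, a minimum of 10 counts in every library, the legacy fit, limma-voom, no minimum fold change, and with each library left out (0 to 0). DESeq2 on all genes called 12 higher and 17 lower, beside 24.3% and 21% of all genes that received an adjusted p. On the genes kept by filterByExpr it called 9 higher and 16 lower, a setting for which the share over all genes is not given. It called 14 other mitochondrial translation genes under both, and the cause was not tested. With the replicate number as a block, 0 genes were called in each direction, and 4 were lower and 1 higher at an unadjusted p under 0.05. The correlation of same-numbered deviations was 0.0112 over 19335 genes, so the numbers were not read as pairs. At that p the number of lower genes was 6 with limma-voom and 20 and 22 with DESeq2. The share of all genes at that p is given here for the main edgeR fit only, so these counts are not read as a result about the members. The log2 ratio of summed CPM lay between -1.70 and -1.20 with a library left out, and that of large to small sums between -1.90 and -0.93. The difference in genes above background was -23 to -20 with a library left out, -5 at 3 counts, -6.5 at 10 CPM and -4.5 at 50 CPM, and -9.5 with 1 limit in CPM per kilobase for all libraries, a setting chosen after seeing the data. Leaving out Mrps18b, also chosen after seeing the data, reversed the log2 ratio of the small subunit genes without a bacterial counterpart from 1.16 to -1.53. No other setting run reversed the direction of these sums and differences or of the 11 genes with an unadjusted p under 0.05 and groups apart. With library size only, the median log2 fold change was -0.70 for the genes tested and 0.21 for all genes. With 2 libraries a diet, no exact permutation test can go below 0.333.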
